A study of Mus musculus with 22 samples.

Results

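Fatty acid uptake and binding were followed through 10 genes in mouse brown adipose tissue (BAT): Cd36, Lpl, Gpihbp1, Angptl4, Fabp3, Fabp4, Fabp5, Slc27a1, Slc27a2 and Acsl1. The genes were listed by name for their part in bringing fatty acids from circulating lipoproteins to the brown adipocyte, and none was chosen by its level. Earlier results of these data were known when the list was made. All 10 were found among the 55487 gene identifiers of the count tables. All 10 also passed the filter on low counts, which left 17869 genes for the untreated mice and 18899 for the AAV mice. The study compared BAT of CPEB2-WT mice with BAT of CPEB2-KO mice, which lack the translational regulator CPEB2 in the whole body, and asked whether added PRDM16, a transcription factor of brown adipocyte identity, changed the KO tissue.

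In BAT, fatty acids are the main fuel for heat production. Lipoprotein lipase (Lpl), made by adipocytes, is carried across the capillary wall and held there by Gpihbp1, where it releases fatty acids from triglyceride-rich lipoproteins, and Angptl4 inactivates the enzyme. The membrane glycoprotein CD36 and the fatty acid transport proteins Slc27a1 (FATP1) and Slc27a2 (FATP2) serve uptake, the acyl-CoA synthetase Acsl1 traps the fatty acid in the cell as acyl-CoA, and the small binding proteins Fabp3, Fabp4 and Fabp5 carry it through the cytosol. Brown fat is known as a strong sink for circulating triglyceride, a process that requires both Lpl and CD36.

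Each of the 22 libraries came from the BAT of 1 mouse. An untreated cohort consisted of 5 WT and 5 KO animals, labelled as males of 21 to 25 weeks, from which food was withheld for a few hours before collection. The AAV cohort held 3 mice in each of 4 groups, named WT_GFP, WT_PRDM16, KO_GFP and KO_PRDM16. These males received 2e+10 vector genomes of adeno-associated virus in 30 µl into the interscapular BAT at 16 weeks of age. The virus carried GFP or flag-tagged PRDM16. The labels give 25 weeks as the age at collection, after 9 weeks of expression. All mice were on chow with 9% fat, and KO and WT mice came from crosses of heterozygous mice on the C57BL/6 background. The KO is global, so that a difference in BAT may arise in any organ, while the virus was placed in the tissue itself.

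Library totals ran from 55320927 to 162721202 counts. Transcripts of the targeted gene Cpeb2 stood at a normalised read count (CPM, scaled to the size of the library) of 7.69 to 14.3 in untreated WT libraries and at 2.10 to 5.78 CPM in KO libraries 2 to 5, but at 11.7 CPM in the library labelled KO replicate 1. In the AAV cohort Cpeb2 was at 10.5 to 13.96 CPM in WT and at 4.33 to 5.55 CPM in KO libraries. Of the 10 untreated libraries, 6 (WT 3 and 5, and those labelled KO 1, 3, 4 and 5) had at most 1.17 CPM summed over 4 Y-linked genes and 104 to 305 CPM of Xist, against their label as males. WT 4 had both Y-linked transcripts (116 CPM) and Xist (14.02 CPM). Brown adipocyte markers were present in every library, with 3989 to 13843 CPM summed over 10 genes, whereas 14 skeletal muscle markers summed to 10.0 to 7685 CPM in untreated and to 1.22 to 117 CPM in AAV libraries. The genotype differences of the untreated cohort are therefore also given over 4 further fits, without the library labelled KO replicate 1, without WT mice 1 and 2 (whose names in the study's own tables follow another scheme), with the Y-linked transcripts and with the muscle markers as a term of the model.

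The 10 genes together took 0.901% to 1.70% of the counts of an untreated library and 0.957% to 1.39% of those of an AAV library. Compared per kilobase (kb) of the union of annotated exons, Fabp4 was the most abundant of the 10 in both cohorts, with 1321 ± 424 CPM per kb (SD, n = 10) in untreated and 714 ± 53.3 (SD, n = 12) in AAV libraries. Fabp3, the heart-type binding protein, came next with 841 ± 332 and 534 ± 144 CPM per kb. Cd36 followed with 292 ± 105 and 476 ± 44.5 CPM per kb, Lpl had 266 ± 164 and 238 ± 44.6, and Acsl1 had 172 ± 51.6 and 254 ± 42.9. The remaining 5 genes were below 100 CPM per kb in both cohorts, in the order Angptl4, Slc27a2, Slc27a1, Gpihbp1 and Fabp5 on this scale. Within 1 SD, neighbours in the order of the untreated cohort overlapped except Fabp3 and Cd36. In the AAV cohort the breaks lay between Cd36 and Acsl1, between Lpl and Angptl4, and between Slc27a1 and Gpihbp1, and all other neighbours overlapped. The annotated union includes retained introns, which make up most of it for Fabp4 (4489 bases against 896 in the principal coding transcript) and Fabp5 (3567 against 987). Per kb of the principal transcript, a scale chosen after the data were seen, Fabp4 was at 6618 and 3576 CPM per kb, while Acsl1, Lpl, Fabp3 and Cd36 exchanged ranks 2 to 5 and Angptl4, Slc27a1, Slc27a2 and Gpihbp1 ranks 6 to 9.

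Fabp4 and Fabp5 lie near each other on chromosome 3 (GRCm38, chr3:10204088-10208576 on the minus strand and chr3:10012548-10016607 on the plus strand). The lipase Lpl (chr8:68880491-68907448), Slc27a1 (chr8:71568882-71587302) and Acsl1 (chr8:46471037-46536051) are all on the plus strand of chromosome 8. Cd36 is at chr5:17781690-17888801 (minus), Gpihbp1 at chr15:75596628-75599481 (plus), Angptl4 at chr17:33773750-33781830 (minus), Fabp3 at chr4:130308595-130315463 (plus) and Slc27a2 at chr2:126552407-126588243 (plus). Of all 50-base words in the transcripts of Fabp3, 37.3% also occur in transcripts of another gene, namely the pseudogene Fabp3-ps1 and the overlapping genes Zcchc17 and Gm10570 on the other strand. Those 3 genes were themselves counted at 0.938 to 23.4, 9.92 to 17.5 and 1.24 to 3.77 CPM, against 150 to 1068 CPM for Fabp3. The corresponding share was 9.80% for Slc27a2, 9.23% for Acsl1, 5.48% for Fabp5, at most 1.43% for Lpl and Slc27a1, and 0 for Cd36, Gpihbp1, Angptl4 and Fabp4. The setting for strand and for reads with several matches is not given in the sources used here, so that the counts of Fabp3 are the least certain of the 10.

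**Figure D1:**
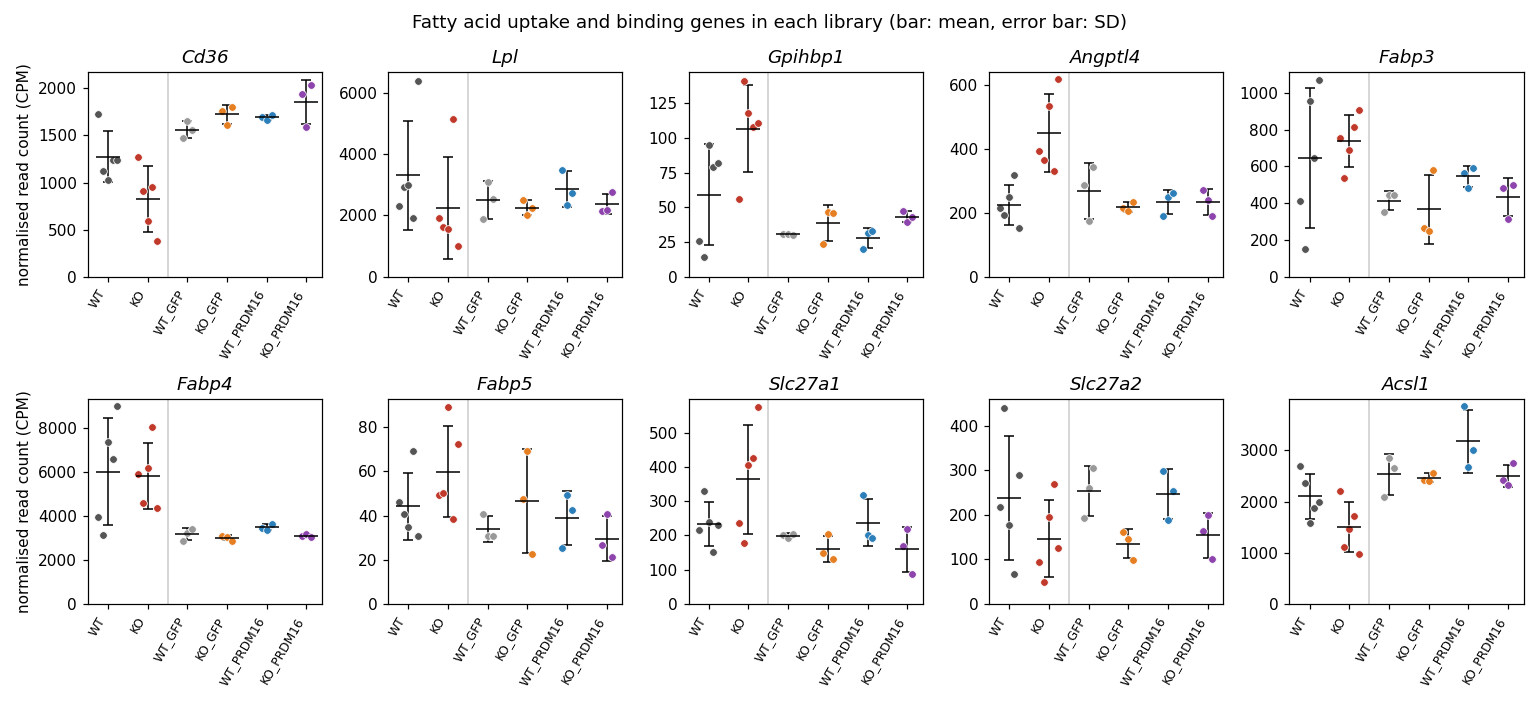
Normalised read count (CPM, y axis from 0) of each of the 10 genes in the 6 groups (x axis), with 1 point per library, a bar at the mean and error bars of 1 SD. The vertical line separates the untreated cohort from the AAV cohort, which were normalised separately. The untreated libraries spread widely, Angptl4 is higher in all 5 KO than in all 5 WT libraries of that cohort, and Slc27a2 is lower in all 3 KO_GFP than in all 3 WT_GFP libraries.

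The genes varied more among untreated than among AAV libraries, with 1 exception. The highest library exceeded the lowest by 4.58-fold for Cd36 among untreated libraries and by 1.38-fold among AAV libraries, and by 2.86-fold and 1.27-fold for Fabp4. Over all libraries of the AAV cohort the coefficient of variation was 7.47% for Fabp4 and 9.34% for Cd36, the lowest of the 10 genes, and 37.5% for Fabp5, the highest. Fabp5 was the exception, with 36.2% in the untreated cohort. Gpihbp1 (49.0% and 26.0%) and Slc27a2 (61.9% and 35.3%) varied strongly in both.

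The first comparison asked how the loss of CPEB2 changed the untreated BAT. None of the 10 genes passed an adjusted p of 0.05 (edgeR's quasi-likelihood test, Benjamini-Hochberg adjustment over 17869 genes, 5 WT against 5 KO), and neither did any other gene tested, with 0% called and a smallest adjusted p of 0.305. At an unadjusted p under 0.05 the test gave 2836 genes, 15.9% of those tested, and 1 of the 10, Angptl4. DESeq2 and limma-voom called no gene at an adjusted p of 0.05 either. The median log2 fold change of the 10 genes was 0.07, beside 0.04 over all genes tested, with 5 positive and 5 negative values. In these bulk libraries, fewer cells of a type and less RNA per cell cannot be told apart.

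Among the genes of lipolysis at the capillary wall, Angptl4, the inhibitor of lipoprotein lipase, was at 215, 194, 250, 319 and 153 CPM in the 5 WT libraries and at 395, 367, 535, 332 and 619 CPM in the 5 KO libraries. Every KO library was above every WT library, as for 1.40% of all genes tested, which had non-overlapping groups in either direction. The log2 fold change was 0.99 ± 0.28 (SE), a 1.99-fold difference of the mean level from 226 ± 62.8 to 450 ± 122 CPM (SD, n = 5), with an interval of 0.39 to 1.59 and an adjusted p of 0.305 in edgeR. The study's own thresholds for this comparison, an FDR no higher than 0.5 with a change of 2-fold or more, were met by 10.8% of all genes and by none of the 10, since Angptl4 fell just short of 2-fold. Angptl4 passed these thresholds with DESeq2 (log2 fold change 1.05), with RLE scaling (1.05), and on leaving out WT mouse 3 (1.03), WT mouse 4 (1.15), the library labelled KO 1 (1.03), KO mouse 2 (1.09) or KO mouse 4 (1.08). Of all 17869 genes, 1934 passed them with DESeq2 and 1988 with RLE scaling. Over the fits that left out 1 library, the count ran from 0 to 3155 genes, the highest without WT mouse 3. Angptl4 remained at 0.95 without WT mice 1 and 2, at 1.004 with the Y-linked transcripts as a term, at 0.99 with the muscle markers as a term, and at 0.98 with the macrophage markers as a term. The lowest value was 0.82, with limma-voom and quality weights, and the adjusted p reached 0.867 over the alternatives. Without WT mice 1 and 2, 0 genes passed the study's thresholds. The same held with the Y-linked term and with the trend in transcript length and GC content removed. Among the libraries without Y-linked transcripts, the 2 WT libraries were at 153 and 250 CPM and the 4 KO libraries at 332 to 619 CPM.

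Lpl itself was at 2311, 2927, 3000, 1917 and 6399 CPM in WT and at 1912, 1641, 1561, 5159 and 993 CPM in KO libraries. WT mouse 5 and KO mouse 4 were far above the rest of their groups, and the groups overlapped. The log2 fold change was -0.56 ± 0.47 (SE, adjusted p = 0.511, edgeR). The value rested on the high library of each group. On leaving out KO mouse 4 it was -1.12 and Lpl met the study's thresholds, and on leaving out WT mouse 5 it was -0.17. Over the fits that left out 1 library, between 0 and 3155 genes met these thresholds. The log2 fold change of Lpl was -0.18 with limma-voom and quality weights and -0.12 with the trend in transcript length and GC content removed.

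Gpihbp1, the capillary anchor of the enzyme, was at 25.4, 14.3, 94.8, 79.0 and 82.1 CPM in WT and at 56.3, 141, 118, 108 and 110 CPM in KO libraries. WT mice 1 and 2 lay below all others of the cohort, and the library labelled KO 1 lay below WT mice 3 to 5. The log2 fold change was 0.85 ± 0.47 (SE, adjusted p = 0.353, edgeR). Without WT mice 1 and 2 it was 0.38, and without the library labelled KO 1 it was 1.01, which met the study's thresholds. They were also met on leaving out WT mouse 3 (1.09) and with the replicate number as a block (1.06). In these last 2 fits, 3155 of 18354 and 2101 of 17869 genes met the thresholds. The count ran from 0 to 3155 over the fits that left out 1 library.

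Among the genes of uptake and activation, Cd36 was at 1731, 1125, 1026, 1240 and 1243 CPM in WT and at 1277, 916, 594, 958 and 378 CPM in KO libraries. The library labelled KO 1, the one with Cpeb2 at the WT level, was the only KO library above the WT range's lower end of 1026 CPM. The log2 fold change was -0.63 ± 0.33 (SE, adjusted p = 0.341, edgeR). It was -0.84 (adjusted p = 0.183) without the library labelled KO 1 and -0.05 once each library's trend in transcript length and GC content was removed, so that its size rested on that choice.

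Acsl1 was at 2693, 2365, 1576, 1882 and 1991 CPM in WT and at 2200, 1114, 1473, 1716 and 979 CPM in KO libraries, and the groups overlapped (log2 fold change -0.49 ± 0.29, SE, adjusted p = 0.375, edgeR). Slc27a1 was at 216, 331, 240, 153 and 230 CPM in WT and at 236, 178, 406, 425 and 574 CPM in KO libraries. Only KO mice 3, 4 and 5 exceeded the WT range (log2 fold change 0.64 ± 0.34, SE, adjusted p = 0.344, edgeR), and the value was 0.07 with the length and GC trend removed. Slc27a2 was at 217, 440, 177, 67.4 and 289 CPM in WT and at 93.4, 49.8, 196, 270 and 125 CPM in KO libraries. The groups overlapped over most of their range, with a log2 fold change of -0.70 ± 0.50 (SE, adjusted p = 0.450, edgeR). It was 0.04 with limma-voom and quality weights, -0.22 without WT mice 1 and 2 and -1.04 without KO mouse 4, where it met the study's thresholds. Between 0 and 3155 genes met these thresholds over the fits that left out 1 library.

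The binding proteins gave the smallest differences. Fabp4, the adipocyte form, was at 3953, 3159, 7383, 6609 and 9030 CPM in WT and at 5911, 4600, 6180, 8089 and 4382 CPM in KO libraries. All KO libraries lay inside the WT range, and the log2 fold change was -0.05 ± 0.34 (SE, adjusted p = 0.947, edgeR). Its interval ran from -0.78 to 0.68 and its sign changed under 10 of the alternatives. Fabp3 was at 414, 150, 954, 644 and 1068 CPM in WT and at 752, 535, 686, 813 and 908 CPM in KO libraries, again inside the WT range (log2 fold change 0.19 ± 0.43, SE, adjusted p = 0.812, edgeR). The 6 libraries without Y-linked transcripts held 686 to 1068 CPM of Fabp3 and the 4 with them 150 to 644 CPM, without overlap and across genotypes. Fabp3 was the only one of the 10 genes for which these sets did not overlap. The share over all genes was not computed for this split. WT mice 1 and 2, at 414 and 150 CPM, were the lowest of the libraries with Y-linked transcripts. Fabp5, the epidermal form, was at 45.9, 40.6, 34.8, 69.3 and 30.6 CPM in WT and at 49.3, 50.2, 89.1, 38.5 and 72.3 CPM in KO libraries (log2 fold change 0.44 ± 0.29, SE, adjusted p = 0.423, edgeR).

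Over the 4 further fits (without the library labelled KO 1, without WT mice 1 and 2, with the Y-linked term and with the muscle term), none of the 10 genes was called. Neither was any other gene, with 0 called over all genes in each of these fits. Log2 fold changes ran from 0.95 to 1.03 for Angptl4, from -0.81 to -0.50 for Lpl, from 0.38 to 1.01 for Gpihbp1 and from -0.84 to -0.46 for Cd36. They ran from -0.67 to -0.23 for Acsl1, from 0.40 to 0.87 for Slc27a1, from -1.04 to -0.22 for Slc27a2 and from 0.47 to 0.59 for Fabp5. Fabp3 and Fabp4 changed sign over these fits, from -0.21 to 0.19 and from -0.34 to 0.002. Of the 4 fits, the one without WT mice 1 and 2 gave the values nearest to 0 for Angptl4, Gpihbp1, Cd36, Acsl1, Slc27a2 and Fabp5. For Fabp5 this value, 0.47, was still above the 0.44 of the main fit. The same fit gave the lowest values for Fabp3 and Fabp4. Without the library labelled KO 1, Angptl4, Cd36, Acsl1 and Slc27a1 had an unadjusted p under 0.05, beside 22.2% of all genes in that fit.

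The wide WT range of 3 genes followed a division within the group. WT mice 1 and 2 had 14.3 to 25.4 CPM of Gpihbp1, 150 to 414 CPM of Fabp3 and 3159 to 3953 CPM of Fabp4, below all other 8 untreated libraries for each of these genes. The other 3 WT mice exceeded them 4.29-fold, 3.15-fold and 2.16-fold in the mean. These genes have principal transcripts of 825, 823 and 896 bases, the shortest of the 10. Fabp5, with 987 bases, differed by 1.04-fold, and the 6 genes of 2795 bases or more by 0.54-fold to 1.44-fold. In the AAV cohort, Gpihbp1 (20.0 to 47.4 CPM), Fabp3 (249 to 589 CPM) and Fabp4 (2877 to 3647 CPM) also stood low, although levels of the cohorts were scaled apart. WT mice 1 and 2 are all WT, so that what sets them apart and the genotype cannot be told apart for these libraries. The share of all genes divided in this way was not computed, and a link with transcript length was not tested. The effect of these mice was not limited to the 10 genes. Without them, 2.32% of all genes had an unadjusted p under 0.05 for KO against WT (edgeR), beside 15.9% with them.

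**Figure D2:**
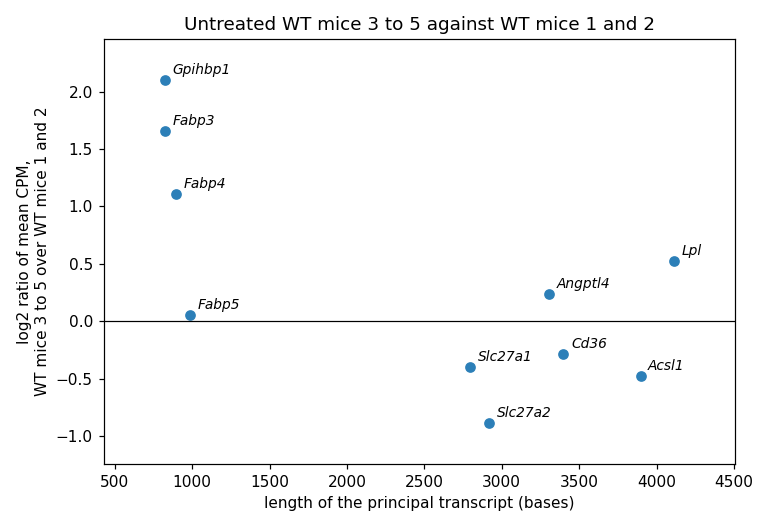
Log2 ratio of the mean CPM in untreated WT mice 3 to 5 over that in WT mice 1 and 2 (y axis) against the length of the gene's principal transcript in bases (x axis), with 1 point per gene. Gpihbp1, Fabp3 and Fabp4, with the shortest transcripts, have log2 ratios of 2.10, 1.66 and 1.11, and the other 7 lie between -0.88 and 0.53.

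The AAV cohort asked the genotype question again with virus-injected BAT. KO_GFP against WT_GFP gave no call among the 10 genes at an adjusted p of 0.05 (edgeR, 3 against 3 libraries in a fit of 12), where 0.0529% of 18899 genes were called. At an unadjusted p under 0.05, Slc27a2 passed, as did 9.18% of all genes. KO_PRDM16 against WT_PRDM16 gave no call either, with 0.0476% of all genes called. Gpihbp1, Slc27a2 and Acsl1 had an unadjusted p under 0.05 there, beside 13.7% of all genes. For the mean of both genotype differences, which uses 6 KO against 6 WT libraries, 2.18% of all genes were called but none of the 10. Slc27a2, Gpihbp1 and Slc27a1 had an unadjusted p under 0.05, beside 18.3% of all genes. The median log2 fold change of the 10 genes in that comparison was -0.17 with 3 positive and 7 negative values, beside 0.01 over all genes.

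Slc27a2, which acts both as a very long-chain acyl-CoA synthetase and in fatty acid uptake, came closest to the threshold. It was at 194, 259 and 305 CPM in WT_GFP and at 161, 147 and 98.3 CPM in KO_GFP libraries. All 3 KO_GFP libraries were below all 3 WT_GFP libraries, as 13.4% of all genes were apart in either direction. In WT_PRDM16 it was at 298, 188 and 254 CPM and in KO_PRDM16 at 162.8, 199 and 100 CPM, where KO_PRDM16 mouse 2 lay above WT_PRDM16 mouse 2. The log2 fold changes were -0.90 ± 0.27 (SE, adjusted p = 0.338, edgeR) with GFP and -0.68 ± 0.27 (SE, adjusted p = 0.294) with PRDM16. Over both viruses Slc27a2 differed by -0.79 ± 0.19 (SE) on the log2 scale, from 250 to 145 CPM, with an interval of -1.20 to -0.38 and an adjusted p of 0.0532 in edgeR. The groups overlapped in this comparison, while 2.71% of all genes had non-overlapping groups.

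The side of the threshold on which Slc27a2 fell depended on the tool and on single libraries. It was called over both viruses by DESeq2 (adjusted p = 0.00139), by limma-voom with quality weights (adjusted p = 0.0259) and by edgeR without KO_PRDM16 mouse 2 (-0.91, adjusted p = 0.0467), and by DESeq2 in KO_GFP against WT_GFP (adjusted p = 0.0483). The adjusted p over the remaining alternatives reached 0.466. The log2 fold change stayed negative under all of them. It was smallest, at -0.51 (adjusted p = 0.361), with capillary endothelium markers as a term of the model, and -0.62 (adjusted p = 0.466) with macrophage markers. The loss of calls was general, since calls over all genes fell from 412 to 7 with the endothelial and to 0 with the macrophage term. The summed level of 11 macrophage markers was 54.4 to 168 CPM in WT and 101 to 510 CPM in KO libraries of this cohort, with none of the markers at 0. In the untreated cohort, WT mouse 4, the library labelled KO 1 and KO mouse 2 had 368 to 585 CPM of these markers and the lowest Slc27a2 values of their cohort, 49.8 to 93.4 CPM. The level of Slc27a2 correlated with the endothelial markers at r = -0.74 in the AAV and -0.57 in the untreated libraries. With the macrophage markers the values were -0.61 and -0.85. The part of endothelial or macrophage RNA in the result was not tested beyond the 2 terms.

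**Figure D3:**
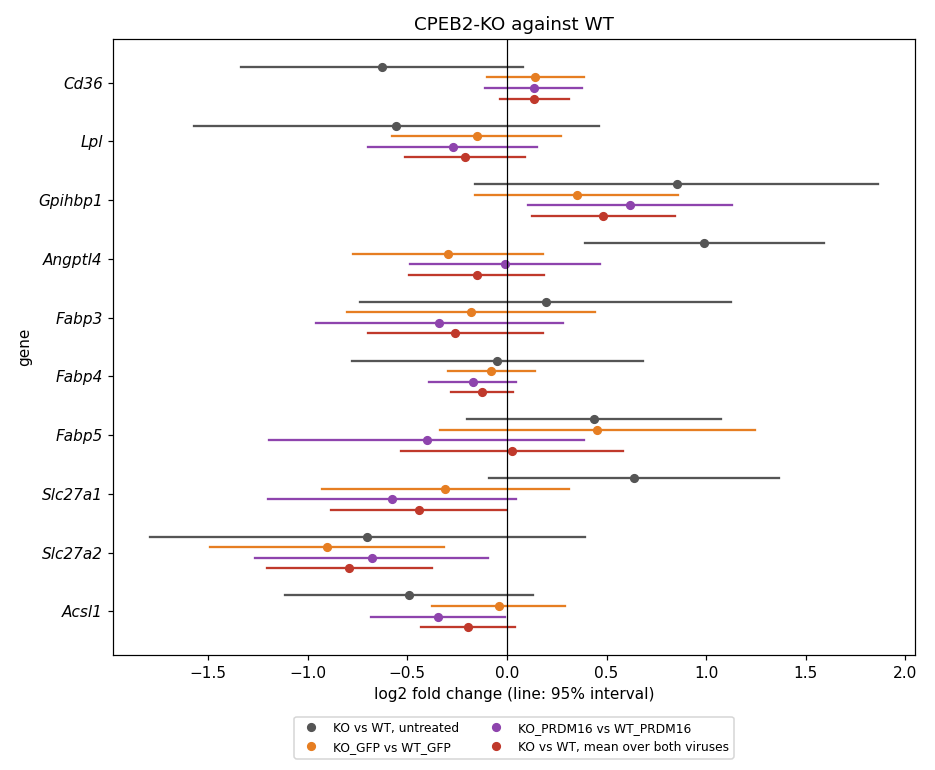
Log2 fold change of CPEB2-KO against WT (x axis, with lines for the 95% interval) of each gene (y axis) in the untreated cohort, with AAV-GFP, with AAV-PRDM16 and as the mean over both viruses. Slc27a2 lies below 0 in all 4 (-0.70, -0.90, -0.68 and -0.79) and Gpihbp1 above 0 (0.85, 0.35, 0.62 and 0.48), whereas Angptl4 is at 0.99 in the untreated cohort and at -0.30 and -0.01 in the AAV cohort.

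Gpihbp1 was at 30.7, 30.8 and 30.0 CPM in WT_GFP and at 23.7, 46.5 and 46.3 CPM in KO_GFP libraries, where KO_GFP mouse 1 was below the WT_GFP libraries and the other two were above. In WT_PRDM16 it was at 20.0, 31.3 and 33.0 CPM and in KO_PRDM16 at 47.4, 39.3 and 42.8 CPM, so that these groups did not overlap, as for 22.8% of all genes. Over both viruses the log2 fold change was 0.48 ± 0.17 (SE), from 29.3 to 41.0 CPM, with an adjusted p of 0.140 in edgeR. DESeq2 called Gpihbp1 (adjusted p = 0.0429), and so did edgeR without KO_GFP mouse 1 (0.61, adjusted p = 0.0261). These 2 fits called 1584 of 18899 and 590 of 19521 genes. The range of adjusted p over the other alternatives reached 0.797. Gpihbp1 is made by capillary endothelial cells. Its level correlated with the mean log2 CPM of 10 endothelial markers, with r = 0.86 in the AAV and 0.84 in the untreated libraries. These markers summed to 511 to 646 CPM in WT and to 477 to 785 CPM in KO libraries of the AAV cohort. KO_GFP mouse 1 had the lowest sum of the cohort and the lowest Gpihbp1 value of the KO libraries. With the endothelial markers as a term the log2 fold change was 0.13 (adjusted p = 0.770), and with macrophage markers 0.23 (adjusted p = 0.797). Calls over all genes fell from 412 to 7 with the endothelial and to 0 with the macrophage term. The part of endothelial or macrophage RNA in the value was not tested beyond these terms.

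**Figure D4:**
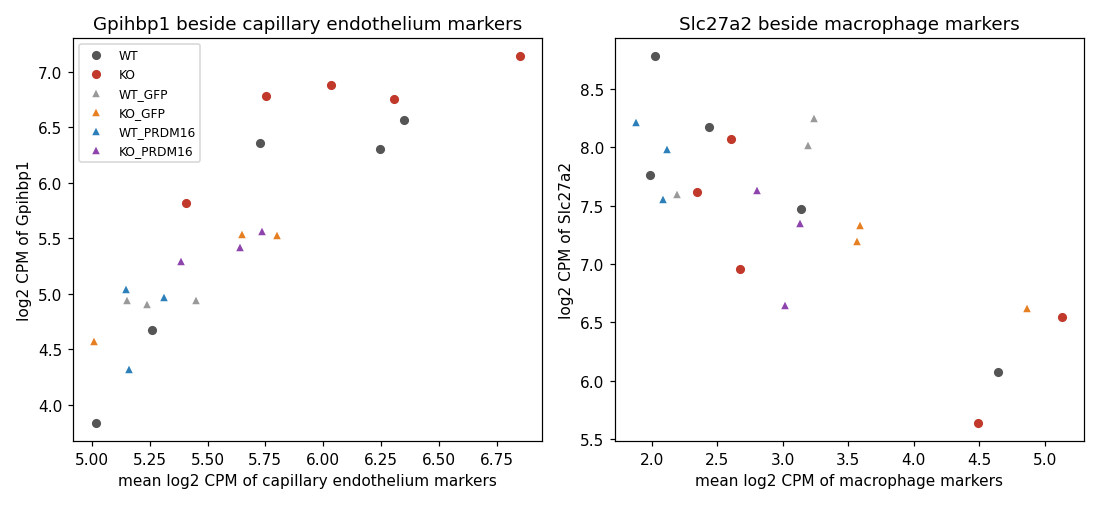
Left, log2 CPM of Gpihbp1 (y axis) against the mean log2 CPM of 10 capillary endothelium markers (x axis); right, log2 CPM of Slc27a2 against the mean log2 CPM of 11 macrophage markers. Each point is a library, circles for the untreated and triangles for the AAV cohort. Gpihbp1 is highest where the endothelial markers are highest, and in the untreated cohort the 3 libraries with macrophage scores above 4 have the lowest Slc27a2.

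For the mean over both viruses, the other 8 genes differed less between genotypes. Slc27a1 was at 201, 193 and 205 CPM in WT_GFP, at 148, 205 and 132 CPM in KO_GFP, at 317, 203 and 192 CPM in WT_PRDM16 and at 170, 219 and 89.0 CPM in KO_PRDM16 libraries. Its log2 fold change over both viruses was -0.44 ± 0.20 (SE, adjusted p = 0.270, edgeR), opposite in sign to the untreated cohort. Acsl1 was at 3856, 2671 and 3000 CPM in WT_PRDM16 and at 2426, 2319 and 2748 CPM in KO_PRDM16 libraries, a log2 fold change of -0.35 ± 0.15 (SE, adjusted p = 0.345, edgeR). With GFP it was -0.04 ± 0.15, from 2082, 2847 and 2665 CPM in WT to 2428, 2393 and 2562 CPM in KO libraries. The genotype difference of Acsl1 did not change beyond its error with the virus (interaction -0.31, interval -0.78 to 0.17).

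Angptl4, which stood apart in the untreated cohort, was at 287, 173 and 345 CPM in WT_GFP and at 216, 205 and 235 CPM in KO_GFP libraries, with the KO libraries inside the WT range. With PRDM16 it was at 192, 249 and 264 CPM in WT and at 272, 239 and 190 CPM in KO libraries. The log2 fold change over both viruses was -0.15 ± 0.16 (SE, adjusted p = 0.660, edgeR), with an interval of -0.49 to 0.19. The upper bound is below the lower bound of 0.39 of the untreated cohort. The cohorts were tabulated and normalised separately, so that the difference between them was not tested.

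Cd36 was at 1470, 1657 and 1558 CPM in WT_GFP and at 1763, 1608 and 1801 CPM in KO_GFP libraries, and at 1692, 1669 and 1715 CPM in WT_PRDM16 and at 1942, 1594 and 2035 CPM in KO_PRDM16 libraries. Over both viruses the log2 fold change was 0.14 ± 0.08 (SE, adjusted p = 0.388, edgeR), with an interval of -0.03 to 0.31. The interval of Cd36 in the untreated cohort, -1.34 to 0.08, overlapped it, and the difference between the cohorts was not tested. Fabp4 was even more uniform, at 2877, 3258 and 3410 CPM in WT_GFP and at 3092, 3070 and 2885 CPM in KO_GFP libraries. In WT_PRDM16 it was at 3482, 3389 and 3647 CPM and in KO_PRDM16 at 3098, 3200 and 3039 CPM, without overlap, as for 22.8% of all genes, and the log2 fold change was -0.17 ± 0.10 (SE, adjusted p = 0.488, edgeR). The interval over both viruses was -0.28 to 0.03.

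Lpl ranged from 1886 to 3501 CPM over the 12 libraries, with a log2 fold change over both viruses of -0.21 ± 0.14 (SE, adjusted p = 0.456, edgeR). Fabp3 was at 352, 446 and 444 CPM in WT_GFP and at 267, 249 and 581 CPM in KO_GFP libraries, where KO_GFP mouse 3 was the highest of both groups. Its log2 fold change over both viruses was -0.26 ± 0.20 (SE, adjusted p = 0.549, edgeR). This value was -0.52 (adjusted p = 0.0705) without KO_GFP mouse 3, -0.56 (adjusted p = 0.376) with the endothelial markers as a term and -1.06 (adjusted p = 0.106) with the macrophage markers as a term.

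Fabp5 was at 40.6, 30.6 and 30.6 CPM in WT_GFP and at 47.6, 69.3 and 22.7 CPM in KO_GFP libraries, and at 25.4, 49.1 and 42.4 CPM in WT_PRDM16 and at 26.6, 40.7 and 21.0 CPM in KO_PRDM16 libraries. KO_GFP mice 2 and 3 lay above and below all WT_GFP libraries. The genotype difference on the log2 scale was 0.45 ± 0.36 (SE, adjusted p = 0.783, edgeR) with GFP and -0.40 ± 0.36 (SE, adjusted p = 0.680) with PRDM16, so that the mean over both viruses of 0.03 ± 0.26 (SE) joined values of opposite sign. That mean was -0.18 without KO_GFP mouse 2 and 0.77 (adjusted p = 0.374) with the macrophage markers as a term.

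The comparisons of PRDM16 with GFP asked whether the virus changed these genes within a genotype. Transcripts of Prdm16 itself stood at 23.9, 40.2 and 35.8 CPM in WT_GFP and at 122, 119 and 45.9 CPM in WT_PRDM16 libraries, and at 31.7, 34.5 and 31.7 CPM in KO_GFP and at 69.2, 128 and 73.6 CPM in KO_PRDM16 libraries. WT_PRDM16 mouse 3 was thus close to the libraries with GFP and far below the other two of its group. In WT mice none of the 10 was called, nor was any other gene (0% at an adjusted p of 0.05, edgeR; 7.29% at an unadjusted p under 0.05, with none of the 10). DESeq2 called 152 genes and limma-voom 1, with none of the 10 among them. Cd36 (1470 to 1657 CPM with GFP and 1669 to 1715 CPM with PRDM16) and Fabp3 (352 to 446 and 483 to 589 CPM) did not overlap between the viruses, as for 14.4% of all genes, with log2 fold changes of 0.12 ± 0.11 and 0.40 ± 0.29 (SE). The value for Acsl1 was 0.33 ± 0.15 (SE, adjusted p = 0.694). Without WT_PRDM16 mouse 3 no gene was called with edgeR, 6.48% had an unadjusted p under 0.05 with none of the 10, and the log2 fold changes were 0.10 for Cd36, 0.34 for Fabp3 and 0.37 for Acsl1.

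In KO mice the result was the same, with 0% of all genes called by edgeR, 6.41% at an unadjusted p under 0.05, and none of the 10 in either count. DESeq2 called 266 genes here and limma-voom 0, again with none of the 10. None of the 10 had non-overlapping groups, against 9.43% of all genes. The largest value was that of Fabp5, at 47.6, 69.3 and 22.7 CPM in KO_GFP and at 26.6, 40.7 and 21.0 CPM in KO_PRDM16 libraries (log2 fold change -0.66 ± 0.36, SE, adjusted p = 0.979). Slc27a2 had 0.19 ± 0.27 (SE) with an interval of -0.39 to 0.77. Over both genotypes 0.0370% of all genes were called, 9.09% had an unadjusted p under 0.05, 0.598% had non-overlapping groups, and none of the 10 was in any of these counts. The log2 fold changes of the 10 ran from -0.23 for Fabp5 to 0.32 for Fabp3, with 8 positive and 2 negative and a median of 0.10.

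**Figure D5:**
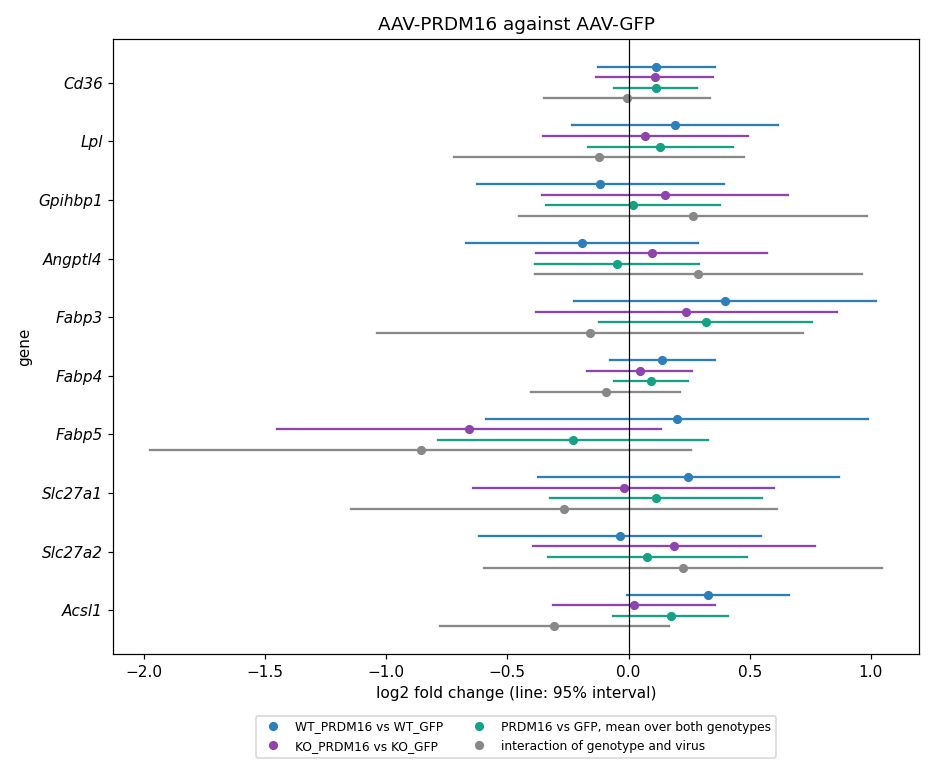
Log2 fold change of AAV-PRDM16 against AAV-GFP (x axis, with lines for the 95% interval) of each gene (y axis) in WT mice, in KO mice and as the mean over both genotypes, and the interaction of genotype and virus. Every interval crosses 0, and those of Cd36 and Fabp4 are the narrowest.

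For the interaction, 0% of all genes were called at an adjusted p of 0.05 and 3.19% had an unadjusted p under 0.05, with none of the 10. DESeq2 called 1 gene, not among the 10, and limma-voom 0. The interaction of Fabp5 was -0.86 ± 0.51 (SE) and that of Slc27a2 0.22 ± 0.38 (SE), with an interval of -0.60 to 1.05. When KO_PRDM16 was set against WT_GFP, 0.00529% of all genes were called and none of the 10. The unadjusted p was under 0.05 for Slc27a2 (-0.71 ± 0.27, SE) and Cd36 (0.25 ± 0.11, SE), beside 7.93% of all genes, and Gpihbp1 (0.50 ± 0.23, SE) was the only one of the 10 with non-overlapping groups, beside 13.4% of all genes. This comparison shares libraries with the other AAV comparisons that use WT_GFP or KO_PRDM16, such as KO_GFP against WT_GFP. It is not independent of them.

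The wider pathway was read from 38 further genes in 5 lists, of which 27 were tested in untreated and 28 in AAV libraries. In the untreated cohort none was called, and 3 had an unadjusted p under 0.05 with higher and 5 with lower values in KO, 8 of 27 beside 15.9% of all genes. Over both viruses 1 gene was called, Apoc1, which encodes an apolipoprotein that inhibits lipoprotein lipase, and 4 of 28 had an unadjusted p under 0.05, all with lower values in KO. Over all genes 2.18% were called and 18.3% had an unadjusted p under 0.05. No gene of the lists was called in the other 7 comparisons. Apoc1 stood at 55.7, 78.7 and 64.5 CPM in WT_GFP and at 40.2, 45.5 and 35.2 CPM in KO_GFP libraries, and at 90.6, 65.2 and 72.0 CPM in WT_PRDM16 and at 30.5, 41.3 and 43.2 CPM in KO_PRDM16 libraries. All 6 KO libraries were below all 6 WT libraries, as 2.71% of all genes were apart in either direction. Apoc1 fell by 0.85 ± 0.12 on the log2 scale (SE, adjusted p = 0.00950, edgeR over all genes). It stayed called under all alternatives except with endothelial markers (-0.73, adjusted p = 0.134) or macrophage markers (-0.78, adjusted p = 0.182) as a term. Those terms left 7 and 0 genes called over all genes. In the untreated cohort Apoc1 had the opposite sign, 0.49 ± 0.63 (SE, adjusted p = 0.671). It stood at 157 ± 117 CPM in WT (SD, n = 5, from 52.0 to 332 CPM) and at 221 ± 158 CPM in KO libraries (SD, n = 5, from 48.6 to 409 CPM).

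In the list of assembly factors, cofactors and inhibitors of lipoprotein lipase, 8 of 9 genes were tested in at least 1 cohort, with a median log2 fold change of -0.27 over both viruses and 0.60 in the untreated cohort. The abundant Apoe, a ligand of lipoprotein receptors, had a value of 1.005 ± 0.352 (SE, adjusted p = 0.305) in the untreated cohort, and Sel1l, which assists lipase maturation, had -0.77 ± 0.31 (SE, adjusted p = 0.305). Of the 5 lipoprotein receptors, Vldlr, which aids lipoprotein capture, had -1.01 ± 0.34 (SE, adjusted p = 0.305) and Scarb1 0.63 ± 0.24 (SE, adjusted p = 0.305) in the untreated cohort. Lrp1, the most abundant receptor of the list, had a mean of 245 CPM in WT and 260 CPM in KO. The list of other transporters and caveola proteins had 9 of 10 genes tested in at least 1 cohort and none with an unadjusted p under 0.05 in these 2 comparisons. Its most abundant members, Cav1 and Cavin1, which form the caveolae that hold CD36, averaged 551 and 391.9 CPM in WT and 450 and 501 CPM in KO of the untreated cohort.

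No other acyl-CoA synthetase was called, and Acsl5 and Acsl3 were the ones with negative values both in the untreated cohort and over both viruses. Acsl5 had a mean of 204 CPM in WT and 89.3 CPM in KO of the untreated cohort (log2 fold change -1.19 ± 0.49, SE, adjusted p = 0.305) and a value of -0.73 ± 0.31 (SE, adjusted p = 0.231) over both viruses. Acsl3 had -0.93 ± 0.35 (SE, adjusted p = 0.305) and -0.52 ± 0.20 (SE, adjusted p = 0.187). Acsl4 had -0.78 ± 0.35 (SE, adjusted p = 0.311) and 0.11 ± 0.11 (SE, adjusted p = 0.655), and Acsbg1 had 0.76 ± 0.62 and -0.54 ± 0.61 (SE). Acsl6 was tested in the untreated cohort alone (1.84 ± 1.09, SE, adjusted p = 0.378). The acyl-CoA-binding protein Dbi was abundant, at means of 893 and 1207 CPM in untreated WT and KO. Of 7 other fatty acid-binding proteins only Fabp7 passed the filter, with a mean of 0.0855 CPM over the 22 libraries, so that Fabp3, Fabp4 and Fabp5 were the members of the family detected above trace level in this BAT.

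The pattern of each of the 10 genes was set beside that of 6587 protein-coding genes of at least 10 CPM, by Pearson's r of log2 CPM over the 22 libraries after each cohort's mean was removed. These values describe likeness across libraries that share their mice and their depth, and the genes with the highest of 6587 values were named. Gpihbp1 was most like Esam, an endothelial adhesion molecule and one of the endothelial markers, with r = 0.98 (0.98 within the untreated and 0.97 within the AAV libraries). Slc27a2 was most like Crls1, the cardiolipin synthase of mitochondria (0.91; 0.94 and 0.83), and Cd36 was most like Tank (0.96; 0.98 and 0.79). For Lpl the gene was Tmed5 (0.94), for Acsl1 Nipa2 (0.94), for Slc27a1 Inca1 (0.93), for Fabp3 Gss (0.87), for Angptl4 Plod3 (0.87) and for Fabp5 the fructose transporter Slc2a5 (0.83). Fabp4 was most like mt-Co3, a mitochondrially encoded subunit of cytochrome oxidase, with r = 0.95, but this rested on the untreated cohort (0.98, and 0.49 within the AAV libraries). No gene of the 10 had another of the 10 as its closest match.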

How the data were processed

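BAT RNA was made into libraries by the authors with the SureSelect XT HS2 mRNA kit. The authors deposited a table of whole-number counts per Ensembl gene for each cohort, not normalised. The submitters' notes list bcl2fastq 2.20, Trimmomatic 0.36, HISAT2 and GRCm38.p6, and the paper names BCL Convert. The counting tool and the handling of strand, molecular identifiers and duplicates are not given in the sources used here. Groups came from the labels.

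The 10 genes and the lists were chosen with earlier results of these data known. Names, positions and lengths came from GENCODE M21, which named 55227 of 55487 identifiers. In R 4.3.3, genes were filtered by filterByExpr (edgeR 4.0.16), scaled by TMM and compared by the two-sided quasi-likelihood test of edgeR, adjusted over all genes tested. The untreated fit used 10 libraries, and the AAV fit 12 with 8 contrasts. CPM are TMM-scaled, log2 CPM have a prior count of 2, and SE is the log2 fold change over the square root of F. The fit was tested on simulated data. Named list genes were those called in any comparison and the 3 of each list with the highest mean. Acsl4, Acsl6 and Acsbg1 were named beyond this rule, to cover the other acyl-CoA synthetases tested. Alternatives were DESeq2 1.42.0, limma-voom (limma 3.58.1), RLE scaling, no filter, each library left out, a replicate block, marker scores or Y-linked transcripts as covariates, other sets of libraries and other lengths. The length and GC correction and the endothelial and macrophage terms were added after seeing the data. Depth was 55320927 to 162721202 counts per library, and each of the 10 genes had at least 1259 counts in every library. Replicates of a group differed by more than counting noise. The main fits did not pair libraries by replicate number.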

Additional observations from a re-analysis of the deposited data

Results flagged for a closer look

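Gpihbp1 stood at 56.3 CPM in the library labelled KO replicate 1, while the other 4 untreated KO libraries held 108 to 141 CPM. Its gap to the nearest of these was 0.710 of the whole range of the group on the log2 scale, just past the 95% limit of 0.710 for 5 values. This was 1 of 20 such tests over the 10 genes and 2 groups, and chance passes about 1 in 20. The same library had Cpeb2 at 11.7 CPM, the level of WT libraries, 6859 CPM of skeletal muscle markers and the lowest sum of endothelial markers of its group, 571 CPM. Their part in the value was not tested.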

How the results depend on the processing

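Of 90 log2 fold changes (10 genes in 9 comparisons), 53 kept their sign under every alternative, and no change of sign concerned a called value. Of 1940 values from alternatives, 103 changed sign with neither value past the threshold, and 6 of the same sign passed the threshold. Over both viruses, the count of the 10 genes called for KO against WT went from 0 to 2 with DESeq2 (Slc27a2 and Gpihbp1) and to 1 with limma-voom (Slc27a2), and from 0 to 1 over the fits that left out each library, by KO_GFP mouse 1 (Gpihbp1) and KO_PRDM16 mouse 2 (Slc27a2). For KO_GFP against WT_GFP it went to 1 with DESeq2 (Slc27a2). The count past the study's thresholds in the untreated cohort went from 0 to 1 with DESeq2, RLE scaling (Angptl4 in both) or the replicate block (Gpihbp1), and from 0 to 3 over the fits without each library. It was 3 without KO mouse 4 (Angptl4, Lpl, Slc27a2), 2 without WT mouse 3 or the library labelled KO 1 (Angptl4 and Gpihbp1 in both) and 1 without WT mouse 4 or KO mouse 2 (Angptl4). The cause was not tested. Counts in the other 7 comparisons stayed at 0. Over all genes, calls over both viruses numbered 412 with edgeR, 1584 with DESeq2, 1269 with limma-voom, 250 without the filter and 227 with the length and GC trend removed. For KO_GFP against WT_GFP they were 10, and 243 with DESeq2, 4 with that trend removed and 1 with the replicate block. For KO_PRDM16 against WT_PRDM16 they were 9, and 619 with DESeq2, 545 with limma-voom, 5 with the block and 2 with the trend removed. For PRDM16 against GFP over both genotypes they were 7, and 602 with DESeq2, 144 without the filter, 147 with the trend removed, 76 with RLE scaling and 2 with the block. For KO_PRDM16 against WT_GFP they were 1, and 157 with DESeq2 and 3 with the trend removed. The study's thresholds passed 1924 genes, and 1934 with DESeq2, 1988 with RLE scaling, 6907 without the filter, 1273 with limma-voom and 0 with the trend removed. With marker scores as covariates, calls over both viruses numbered 218 (skeletal muscle), 7 (capillary endothelium) and 0 (macrophage). The study's thresholds passed 1027 genes with the endothelium score, and 0 without WT mice 1 and 2 or with Y-linked transcripts as a covariate. On leaving out each library in turn, calls over both viruses ran from 89 (without KO_PRDM16 mouse 1) to 590 (without KO_GFP mouse 1), those for PRDM16 against GFP from 0 to 352 (without WT_GFP mouse 1), and genes past the study's thresholds from 0 (without WT mouse 1, for example) to 3155 (without WT mouse 3). Without KO_PRDM16 mouse 2, 288 genes were called over both viruses. Without WT_PRDM16 mouse 3, 118 genes were called over both viruses and 1 for PRDM16 against GFP. Same-numbered libraries of different groups had deviations that correlated by -0.29 to 0.11 (untreated, 5 pairs) and -0.09 to 0.15 (AAV, 18 pairs). Whether such libraries share more than a number was not tested beyond these values and the replicate block. The replicate block changed no other call among the 10 genes, and over all genes it gave 344 calls over both viruses and 2101 genes past the study's thresholds. Depth limited none of the 10 genes, each with at least 1259 counts in every library. The spread between mice did, with log2 standard errors of 0.28 to 0.50 in the untreated cohort.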
